A study of Mus musculus with 6 samples.

Results

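RNA of 10 genes that report the state of macrophages was measured in pressure-loaded mouse hearts. They were given by name, and 10 of 10 had a row on the array annotated with exactly 1 gene symbol, out of 19938 genes with such a row. Each gene had 1 such row, so choosing the row of the highest mean over the 6 arrays decided nothing. Within that rule rows were selected on their mean over both genotypes, never on the difference between them, but the genes were named with the genotype differences of these arrays known. Their p-values are therefore no independent evidence that macrophage genes changed. Of the 10 genes, 7 are genes of alternatively activated or lipid-handling macrophages (Retnla, Chil1, Gpnmb, Lgals3, Cd68, Trem2 and Arg1), called activation genes below, and 3 are surface markers of macrophages resident in tissue (Mrc1, Cd163 and Adgre1). Hearts came from male FVB mice that were 8 weeks old at surgery and were collected after 14 weeks. Both groups had transverse aortic constriction (TAC), a narrowing of the aorta that makes the left ventricle pump against high pressure: 3 were wild type and 3 were littermates carrying a transgene for the adenosine A2a receptor (A2a-R), which raises cyclic AMP. The transgene was cardiac-specific and inducible. The sources used here give neither its promoter nor the time of its induction, and unoperated hearts were not analysed here. The rows of the adenosine receptors were not analysed here either, so the genotype labels were not checked against the receptor's own RNA.

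Macrophages of the healthy heart are mostly long-lived resident cells that renew in place, carry scavenger receptors such as CD163 and the mannose receptor, and clear debris from muscle cells. Injury and pressure load add macrophages that derive from blood monocytes. In tissue repair, interleukin-4 and interleukin-13 act through the transcription factor STAT6 to switch on an alternative program with arginase 1, resistin-like alpha and chitinase-like proteins. Macrophages that take up dead cells and lipid instead show Trem2, Gpnmb, Lgals3 and lysosomal proteins such as CD68.

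Values are log2 intensities after robust multi-array averaging (RMA), and 1 unit is a doubling. They are compared between hearts for a gene and not between genes, since probes differ in how well they bind. Array means lay between 7.03 and 7.06. Across the 21789 tested rows, which are not independent, r was 0.9958 to 0.9973 between hearts sharing a genotype and 0.9926 to 0.9957 between hearts that did not. Cardiac muscle genes marked the tissue as labelled: Myh6, the main heavy chain of adult mouse myosin, was at 13.42 in wild-type and 13.36 in transgenic hearts. Because whole hearts were measured, a larger number of cells of a type and more RNA per cell cannot be told apart.

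Retnla, Gpnmb, Lgals3 and Chil1 rose in the transgenic hearts, by 0.80, 0.68, 0.61 and 0.49 on the log2 scale, which is 1.74-, 1.60-, 1.53- and 1.40-fold (limma adjusted p = 0.0154, 0.0150, 0.00423 and 0.0427). Cd68 was 1.53-fold higher and just missed the threshold (limma adjusted p = 0.0622). Trem2 and Arg1 did not pass, and neither did any of the 3 resident markers. In all, 4 of the 10 genes passed an adjusted p below 0.05, where 0.959% of all tested rows passed in either direction, 0.519% as higher and 0.441% as lower. The values of the 2 genotypes did not overlap in 5 of the 7 activation genes and in 2 of the 3 resident markers, against 20.3% of all tested rows in either direction and 7.73% with the transgenic hearts higher; all 7 of these genes were higher. The median change was 0.61 over the activation genes, 0.24 over the resident markers and -0.01 over all tested rows. The dependence of these calls on single hearts differed: Lgals3 passed without any 1 heart, with limma adjusted p of at most 0.0303, while the number of genes that passed was 1 without wild-type replicate 3 and 2 without wild-type replicate 1, transgenic replicate 1 or transgenic replicate 3.

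**Figure D1:**
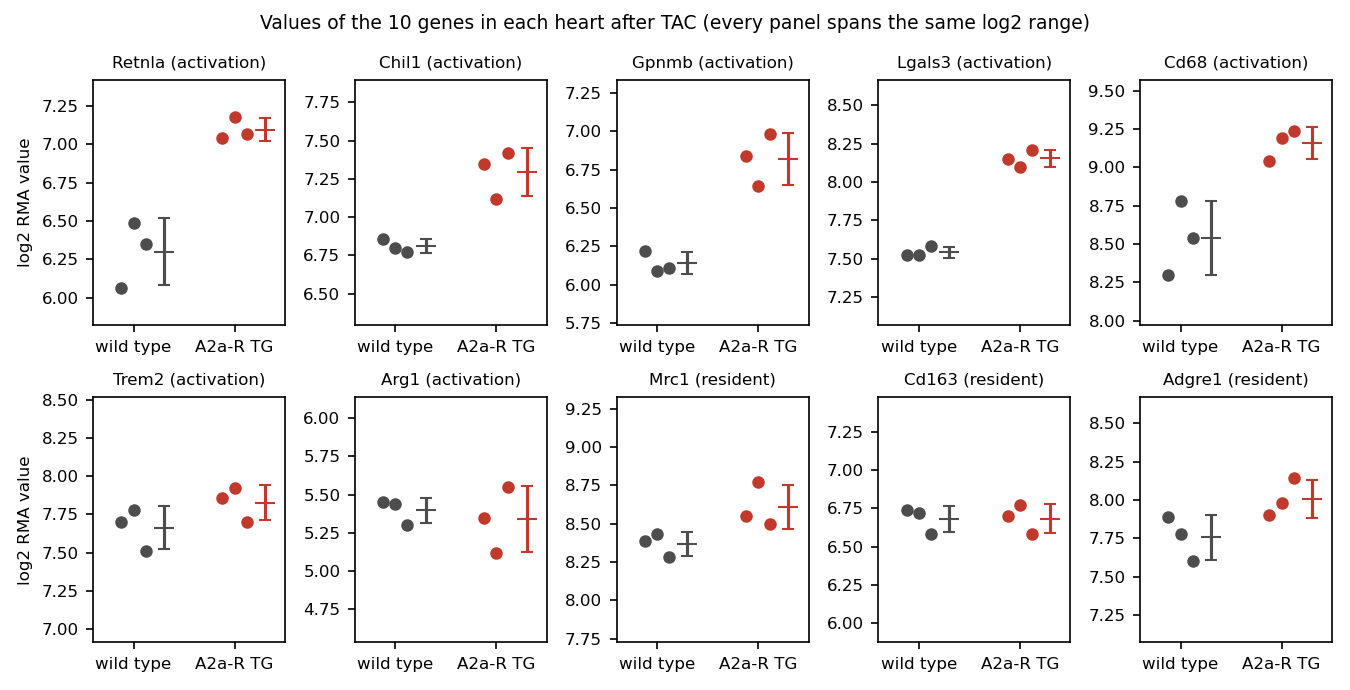
Log2 RMA value (vertical axis) of each of the 10 genes in every heart, with wild type in grey and A2a-R transgenic in red; points are hearts and the bar beside them is the mean with its SD (n = 3). Retnla, Chil1, Gpnmb, Lgals3 and Cd68 show a clear gap between genotypes, whereas Trem2, Arg1 and Cd163 overlap.

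The promoter sequences of the 4 genes that rose and of Cd68 are shown because these genes were higher in the same 3 hearts and because their upstream regions can be read beside those values. Each is the 250 bases before the annotated start in RefSeq's table for GRCm38.p6, written 5′ to 3′ on the gene's own strand. Capitals mark any match, on either strand, to TTC and GAA with 4 free bases between them (the STAT6 motif), CACGTG (the E-box of the MITF and TFE factors of lysosomal genes), TCATGTG (an M-box of the same factors), TGANTCA (AP-1), GAGGAA (PU.1, the myeloid master factor), TGACGTCA (the cyclic AMP response element) or TTGCGCAA (C/EBP).
Retnla promoter, chr16:48842359-48842608, plus strand: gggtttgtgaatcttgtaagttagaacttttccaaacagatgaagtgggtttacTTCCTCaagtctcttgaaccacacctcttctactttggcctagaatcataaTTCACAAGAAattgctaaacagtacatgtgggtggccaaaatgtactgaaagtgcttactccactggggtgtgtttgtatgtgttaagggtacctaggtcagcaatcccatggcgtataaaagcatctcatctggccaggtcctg
Lgals3 promoter, chr14:47373610-47373859, plus strand: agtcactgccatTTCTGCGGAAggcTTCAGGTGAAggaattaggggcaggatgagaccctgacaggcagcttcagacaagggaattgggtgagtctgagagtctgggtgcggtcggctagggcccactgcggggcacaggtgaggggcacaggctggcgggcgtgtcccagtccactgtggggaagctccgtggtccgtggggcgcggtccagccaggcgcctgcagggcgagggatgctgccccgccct
Gpnmb promoter, chr6:49036268-49036517, plus strand: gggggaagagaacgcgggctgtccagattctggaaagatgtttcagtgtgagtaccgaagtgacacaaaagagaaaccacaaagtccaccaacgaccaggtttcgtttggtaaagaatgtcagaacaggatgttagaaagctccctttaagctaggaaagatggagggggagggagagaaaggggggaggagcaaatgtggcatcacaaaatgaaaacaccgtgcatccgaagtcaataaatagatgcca
Chil1 promoter, chr1:134181906-134182155, plus strand: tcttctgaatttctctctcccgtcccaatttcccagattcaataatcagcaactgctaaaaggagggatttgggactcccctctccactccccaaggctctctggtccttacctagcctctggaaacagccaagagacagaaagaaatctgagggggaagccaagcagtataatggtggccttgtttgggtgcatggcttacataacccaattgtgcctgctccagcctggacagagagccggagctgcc
Cd68 promoter, chr11:69666171-69666420, minus strand: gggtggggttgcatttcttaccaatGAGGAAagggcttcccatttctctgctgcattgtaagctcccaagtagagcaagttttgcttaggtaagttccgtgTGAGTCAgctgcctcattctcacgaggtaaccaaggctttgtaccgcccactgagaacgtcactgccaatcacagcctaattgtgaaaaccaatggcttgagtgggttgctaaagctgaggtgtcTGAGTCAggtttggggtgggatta
Of the 10 genes, 8 had a window in the table; Arg1 and Adgre1 had no entry. The STAT6 motif stood in 2 of the 8 windows, those of Lgals3 and Retnla, and in 5.85% of all 32851 windows of that length. In Retnla it read TTCACAAGAA, 145 to 136 bases before the start. In Lgals3 it read TTCTGCGGAA and TTCAGGTGAA, starting 238 and 225 bases before the start. The AP-1 motif was present in Cd68, at 2 places that both read TGAGTCA, and in Trem2, against 6.75% of all windows. The PU.1 motif was found in Mrc1, Cd68, Retnla and Trem2, or 4 of 8, against 23.3% of all windows. The E-box, M-box, cyclic AMP and C/EBP letters occurred in 0 of the 8 windows, against 6.02%, 3.25%, 1.55% and 0.164% of all windows. The windows of Gpnmb and Chil1 held none of the 7 motifs, and no motif was shared by all the genes that rose.

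Among the secreted products, Retnla encodes resistin-like alpha (also called Fizz1 or RELM-alpha), a small protein released by macrophages that have seen interleukin-4 or interleukin-13. Its log2 value was 6.06, 6.49 and 6.35 in the wild-type hearts and 7.04, 7.18 and 7.07 in the transgenic hearts. The highest wild-type heart lay 0.55 below the lowest transgenic one, and wild-type replicate 1 was the lowest of all. The means were 6.30 ± 0.22 and 7.10 ± 0.074 (SD, n = 3 each), a difference of 0.80 ± 0.11 (SE, 95% interval 0.55 to 1.04), which ranked 50th from the top among the 21789 tested rows. The call was lost without wild-type replicate 3, transgenic replicate 2 or transgenic replicate 3 (limma adjusted p = 0.0626, 0.0532 and 0.0590). The other resistin genes did not follow: Retn, Retnlb and Retnlg differed by -0.09, -0.12 and -0.14, and 0 of these 3 passed. The row of Retnlg was dim, at percentile 8.2 of tested rows by mean value.

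Chil1 encodes chitinase-like protein 1 (YKL-40 or BRP-39), a secreted lectin without enzyme activity. It measured 6.86, 6.80 and 6.77 in wild-type and 7.35, 7.12 and 7.42 in transgenic hearts. All 3 transgenic values were above all wild-type ones, with transgenic replicate 2 the nearest, 0.26 above the highest wild-type heart. The difference was 0.49 ± 0.084 (SE, 95% interval 0.29 to 0.68). This was the least secure of the 4 calls: it was kept only without transgenic replicate 2 among the fits with 1 heart left out, and elsewhere the limma adjusted p was 0.115 to 0.160. It was also lost with the replicate number as a block (0.0859). Of the chitinase family, Chil3, which encodes the macrophage protein Ym1, stood at 4.49, 4.50 and 4.73 in wild-type and at 4.84, 5.43 and 5.04 in transgenic hearts. Chil3 differed by 0.53 ± 0.14 (SE) without passing (limma adjusted p = 0.151), and its near copy Chil4, which may share probes with it, differed by 0.02. The rows of Chil3 and Chil4 were dim, at percentiles 11.4 and 0.86 of tested rows by mean value. The remaining family members Chia1, Chit1, Chid1 and Ctbs lay between -0.13 and 0.13.

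Among the genes of lipid-laden and phagocytic macrophages, Lgals3, which encodes the sugar-binding galectin-3, was the most tightly measured. It read 7.52, 7.52 and 7.58 in the wild-type hearts and 8.15, 8.10 and 8.21 in the transgenic hearts. Hearts of a genotype lay close together, with SDs of 0.035 and 0.055, and the groups stood 0.52 apart. The difference was 0.61 ± 0.058 (SE, 95% interval 0.48 to 0.75). None of the other 7 galectin genes passed; Lgals1, the abundant galectin-1, differed by -0.05 and Lgals9 by 0.06, with a range from -0.15 (Lgals7) to 0.11 (Lgals4), and Lgals12, the galectin of fat cells, was at -0.12.

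Gpnmb encodes glycoprotein NMB, a lysosomal and cell-surface protein that macrophages make when their lysosomes are loaded. Its values were 6.22, 6.09 and 6.11 in wild-type and 6.84, 6.64 and 6.98 in transgenic hearts. As for Chil1 and Lgals3, transgenic replicate 3 was the highest heart and transgenic replicate 2 the lowest of its group, yet 0.42 above every wild-type value. The difference was 0.68 ± 0.091 (SE, 95% interval 0.47 to 0.89). The call was lost when any of the 3 wild-type hearts, or transgenic replicate 1, was left out (limma adjusted p = 0.0512, 0.0816, 0.0728 and 0.0505). Pmel, the pigment cell relative of Gpnmb, differed by 0.19 ± 0.072 (SE) and did not pass (limma adjusted p = 0.286).

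Cd68 encodes macrosialin, a lysosomal membrane protein that marks nearly all macrophages and increases with phagocytosis. It was at 8.30, 8.78 and 8.54 in wild-type and 9.04, 9.19 and 9.24 in transgenic hearts. The genotypes did not overlap, but the wild-type SD of 0.24 was about as large as the gap of 0.26 between the groups. The difference of 0.62 ± 0.12 (SE, 95% interval 0.35 to 0.89) was as large as that of Lgals3. At a threshold of 0.05 it passed under 5 of 15 alternatives: without wild-type replicate 2 (limma adjusted p = 0.0436), with arrays centred on their medians (0.0407), with a further quantile normalization (0.0423), without the dimmest 40% of rows (0.0248), and with a trended and robust prior (0.0140). Without any 1 of the other hearts its limma adjusted p lay between 0.0912 and 0.180. The related lysosomal proteins Lamp1 and Lamp2, made by all cells, differed by -0.02 and 0.02, and Lamp3, of dendritic cells, by 0.14.

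Trem2, a receptor for lipids and dying cells that drives the lipid-handling state, and Arg1, the arginase of alternative activation, did not pass. Trem2 was at 7.70, 7.78 and 7.51 in wild-type and 7.86, 7.92 and 7.70 in transgenic hearts, so the groups overlapped. Its difference was 0.16 ± 0.089 (SE), with a 95% interval of -0.04 to 0.37, and whether it differed from that of the genes that rose was not tested. All 6 genes of the Trem family had a difference above 0, from 0.01 (Treml4) to 0.18 (Trem1), with Treml2 at 0.10, and 0 passed in limma (1, Trem1, at an unadjusted p below 0.05). Arg1 measured 5.45, 5.44 and 5.30 in wild-type and 5.35, 5.12 and 5.55 in transgenic hearts, with the highest and the lowest heart both transgenic. Its difference was -0.06 ± 0.11 (SE, 95% interval -0.30 to 0.19). Its row was dim, at the 18.6th percentile of tested rows by mean value. Arg2, the mitochondrial arginase, differed by 0.03.

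**Figure D2:**
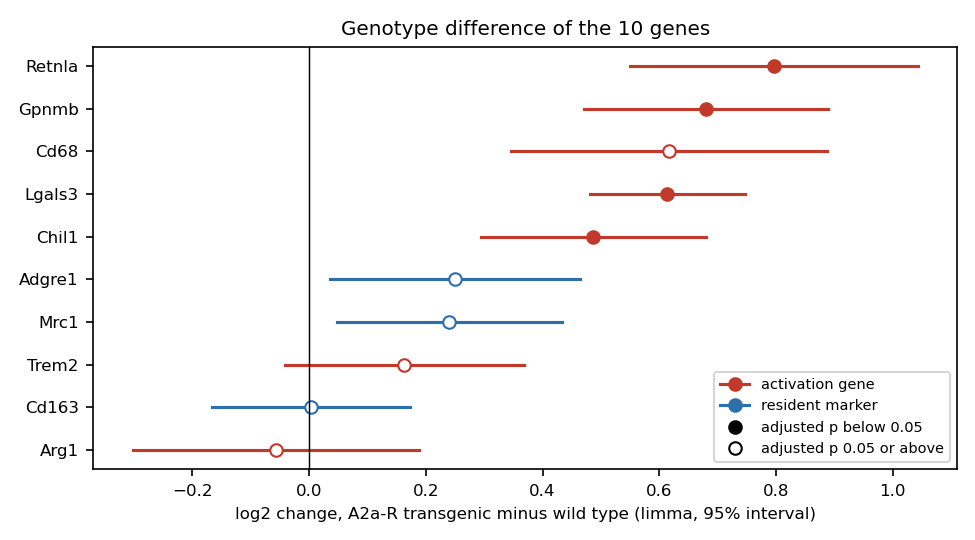
Log2 change of each gene (horizontal axis, transgenic minus wild type) with its 95% interval from limma, activation genes in red and resident markers in blue, filled where the adjusted p was below 0.05. Filled points run from 0.49 for Chil1 to 0.80 for Retnla, and the 3 resident markers lie between 0.00 and 0.25.

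None of the resident markers passed, and Adgre1 and Mrc1 were higher in the transgenic hearts by 0.25 and 0.24. Adgre1 encodes F4/80, the surface receptor by which mouse macrophages are usually identified. It was at 7.89, 7.78 and 7.60 in wild-type and 7.90, 7.98 and 8.14 in transgenic hearts, with only 0.01 between the groups and a difference of 0.25 ± 0.093 (SE, 95% interval 0.04 to 0.46, limma adjusted p = 0.269). Mrc1 encodes the mannose receptor CD206, also used as a marker of alternative activation. It was at 8.39, 8.43 and 8.28 in wild-type and 8.55, 8.77 and 8.50 in transgenic hearts. The groups were 0.07 apart, and the difference was 0.24 ± 0.084 (SE, 95% interval 0.05 to 0.43, limma adjusted p = 0.246). Without transgenic replicate 2, the highest heart, it was 0.16. The intervals of Adgre1 and Mrc1 lay above 0, and their changes ranked 775th and 850th from the top among all tested rows. Cd163, the scavenger receptor for hemoglobin bound to haptoglobin, was at 6.74, 6.72 and 6.58 in wild-type and 6.70, 6.77 and 6.58 in transgenic hearts. Cd163 overlapped fully, with a 95% interval of -0.17 to 0.17. Among wild-type hearts, replicate 3 was the lowest in all 3 resident markers.

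Whether the activation genes differed more than the resident markers was examined within each heart, by subtracting the log2 value of a resident marker from that of an activation gene and setting the wild-type mean to 0. Relative to Adgre1, Retnla stood at 0.60, 0.66 and 0.39 in the transgenic hearts, against -0.37, 0.17 and 0.21 in the wild-type hearts. Lgals3 stood at 0.47, 0.34 and 0.29 against -0.15, -0.04 and 0.20, and Gpnmb at 0.56, 0.28 and 0.46 against -0.05, -0.07 and 0.13. In all of these the transgenic hearts lay above the wild-type ones. Cd68 was also higher in every transgenic heart, at 0.36, 0.43 and 0.32 against -0.37, 0.22 and 0.16. For Chil1 the groups overlapped, at 0.40, 0.09 and 0.23 against -0.08, -0.03 and 0.12.

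Relative to Adgre1, 4 of the 7 activation genes were higher without overlap and 1, Arg1, was lower, where 0.413% of all other rows were higher without overlap and 44.8% did not overlap in either direction. Relative to Mrc1, 4 of 7 were higher without overlap (0.496% of all other rows, and 51.6% in either direction), the same genes as for Adgre1: Retnla, Gpnmb, Lgals3 and Cd68. Relative to Cd163, 6 of 7 were higher without overlap (3.9% of all other rows, and 9.13% in either direction), all but Arg1. These 21 differences use the same 6 hearts and are not independent of each other. Because the genes were named with the genotype differences known, these shares are no independent evidence that activation genes differed more than resident markers. The same limit holds for the fits relative to a resident marker below.

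In a limma fit of every row minus Adgre1, Retnla and Gpnmb passed, with a difference from Adgre1 of 0.55 ± 0.14 and 0.43 ± 0.14 (SE, adjusted p = 0.00706 and 0.0365), among 12% of all rows in either direction and 0.381% in the upward direction. Lgals3 and Cd68 did not, at 0.36 and 0.37 (adjusted p = 0.0643 and 0.0627), nor did Chil1 at 0.24 (0.165). Without wild-type replicate 1, which was low in Retnla and Cd68, the difference from Adgre1 was 0.36 for Retnla and 0.18 for Cd68. The same fit passed 2 of 9 genes with Mrc1 as the reference, among 12.6% of all rows in either direction and 0.395% upward, and 5 of 9 with Cd163, among 1.8% and 1.09%. The error of Adgre1 is shared by every row of this fit, the variance prior became infinitely strong and every SE was 0.14, so these p-values are too firm. With the prior held at the 4.1 degrees of freedom of the fit without a reference gene, chosen after the data were seen, 0 of the 9 genes passed by limma's moderated test, against 0.0643% of all rows, and the same held with Mrc1 (0.0688%) and Cd163 (0.129%) as the reference. With the prior held and Adgre1 as the reference, limma's adjusted p was 0.154 for Retnla, Gpnmb and Lgals3. The unadjusted p of the same fit was 0.0144, 0.00893 and 0.024, and the 95% intervals of their difference from Adgre1 were 0.14 to 0.95, 0.14 to 0.72 and 0.06 to 0.67. With no variance moderation at all, also added after the data were seen, 0 of the 9 genes passed (adjusted p = 0.199 for Retnla and 0.195 for Gpnmb and Lgals3 in limma's fit without moderation). Against Cd163, with the prior held in the same way, the differences were 0.79 ± 0.14 for Retnla, 0.68 ± 0.14 for Gpnmb and 0.61 ± 0.12 for Lgals3 (SE), and 0 passed over all rows (limma adjusted p = 0.152, 0.268 and 0.215).

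**Figure D3:**
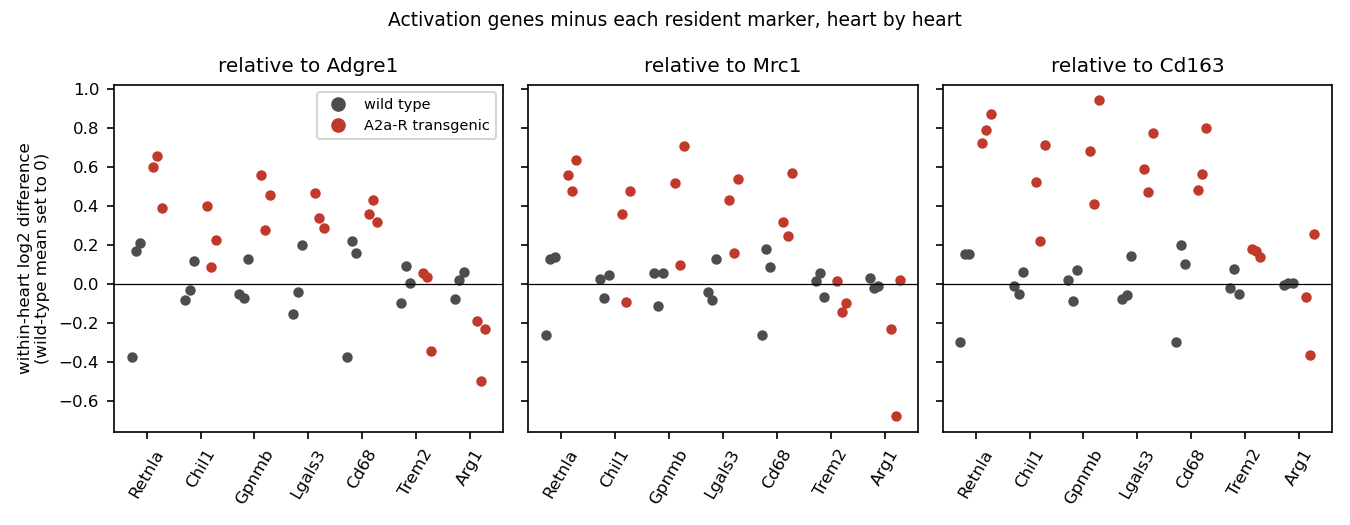
Within-heart log2 difference of each activation gene from Adgre1, Mrc1 and Cd163 (panels), with the wild-type mean set to 0; grey points are wild-type and red points transgenic hearts. Retnla, Gpnmb, Lgals3 and Cd68 lie above the wild-type hearts in all 3 panels, and Arg1 lies below them relative to Adgre1. Relative to Adgre1, 44.8% of all other rows did not overlap in either direction, and 0.413% were higher without overlap.

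The transgenic hearts did not vary alike in all genes. Gpnmb, Chil1 and Lgals3 were each highest in transgenic replicate 3 and lowest in transgenic replicate 2. Retnla, Trem2, Mrc1 and Cd163 were each highest in transgenic replicate 2 instead, and so was Chil3, at 5.43. By the root mean square difference of deviations from a gene's own mean over the 6 hearts, the genes closest to Gpnmb were Lgals3 (0.09), Grin2c (0.10), a glutamate receptor subunit, and Chil1 (0.10). The closest to Lgals3 were Asns, asparagine synthetase (0.06), Cd24a, a cell adhesion glycoprotein (0.06), and the myeloid chemokine Ccl6 (0.06). Retnla was closest to the metallothionein Mt1 (0.07), Msl3 (0.10) and Prps2 (0.10), and Cd68 to the receptor genes Olfr172 (0.08) and Vmn1r174 (0.09) and to 4930505O20Rik (0.11). With 6 hearts in 2 groups, any gene of a like difference comes close.

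Other genes of alternative activation did not move with the activation genes as a group. Of 27 measured, 17 were higher and 10 lower, 0 rose, 1 fell and 26 did not pass, with a median of 0.02. In limma 8 had an unadjusted p below 0.05, against 14.8% of all tested rows. The genotypes did not overlap in 9, with 5 higher in the transgenic hearts, against 20.3% and 7.73% of all tested rows. The largest difference above 0 was that of Chil3, 0.53. The one that fell was Hbegf, a heparin-binding growth factor of the EGF family that heart muscle and vessels also make. It was at 10.01, 9.72 and 9.61 in wild-type and 8.96, 8.68 and 8.95 in transgenic hearts, lower by 0.92 on the log2 scale (-0.92 ± 0.12 SE, limma adjusted p = 0.0125). Without wild-type replicate 2 its limma adjusted p was 0.0594. The lectins Clec10a and Mgl2 differed by 0.29 and 0.19 and Il1rn, which encodes the interleukin-1 receptor antagonist, by 0.26 ± 0.061 (SE, limma adjusted p = 0.105). The receptor chains differed in opposite directions, Il4ra by 0.24 and Il13ra1 by -0.31 ± 0.067 (SE, limma adjusted p = 0.0924). The transcription factors Stat6, Irf4, Klf4 and Pparg lay at 0.01, -0.01, -0.12 and -0.09. Of 14 measured upstream cytokines and receptors, 7 were higher and 7 lower and 0 passed in limma (1 at an unadjusted p below 0.05). That one was Csf1, the macrophage growth factor, at -0.25 ± 0.076 (SE, limma adjusted p = 0.193), while its receptor Csf1r was at 0.14 and the cytokine Il25 at -0.21, and the median was 0.01.

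Of 34 further genes of lipid uptake, storage, efflux and lysosomal breakdown, 24 were higher and 10 lower, with a median of 0.11. Mmp12, the macrophage elastase, rose, and 33 did not pass. In limma 6 had an unadjusted p below 0.05, against 14.8% of all tested rows. The genotypes did not overlap in 10, all higher in the transgenic hearts, against 20.3% of all tested rows and 7.73% as higher. Mmp12 read 5.64, 5.81 and 5.64 in wild-type and 6.25, 6.31 and 6.53 in transgenic hearts, a difference of 0.67 ± 0.088 (SE, limma adjusted p = 0.0147). Its call was lost without wild-type replicate 1 or 3 (0.0726 and 0.0710) and with the replicate number as a block (0.0536). The row of Mmp12 was dim, at percentile 30.0 of tested rows by mean value. Apoe, the apolipoprotein that carries cholesterol out of macrophages, differed by 0.29 ± 0.092 (limma adjusted p = 0.206) and Lipa, the lysosomal acid lipase, by 0.19 ± 0.064 (SE, limma adjusted p = 0.242). Lipid genes that muscle and fat also use lay near 0, with Cd36 at 0.05, Lpl at -0.02 and Plin2 at -0.06. The transcription factors Mitf and Tfeb, which control lysosomal genes and Gpnmb, lay at -0.03 and 0.00.

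Of 17 measured markers shared by myeloid cells or all leukocytes, 15 were higher and 2 lower, with a median of 0.20, and 8 had an unadjusted p below 0.05. Over all tested rows 14.8% had an unadjusted p below 0.05, which is the share to read such counts in the lists against. Fcer1g, the signalling chain of Fc receptors, rose by 0.49 ± 0.084 (SE, limma adjusted p = 0.0420), and 16 did not pass. The call of Fcer1g was lost without any 1 heart except wild-type replicate 2 (up to 0.138), and with the replicate number as a block (0.114). In 10 of the 17 the genotypes did not overlap, all higher in the transgenic hearts, against 7.73% of all tested rows as higher. The summed linear intensity of this list ran from 4055 to 4455 in wild-type and from 4943 to 5163 in transgenic hearts, without overlap. The lowest mean level in it was 5.60, of Aif1. Within it, the lysosomal protease Ctss was at 0.36 ± 0.065 (SE, limma adjusted p = 0.0503) and the lysosomal membrane protein gene Laptm5 at 0.29 ± 0.072 (SE, limma adjusted p = 0.125), while Ptprc, the leukocyte antigen CD45, and Aif1 were at 0.02 and -0.06. The part of this in the differences of the activation genes was not tested, beyond the within-heart comparison with Adgre1, Mrc1 and Cd163.

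Of 22 further markers of resident macrophages, 15 were higher and 7 lower, 0 passed in limma (7 at an unadjusted p below 0.05), and the median was 0.11. In 7 of the 22 the genotypes did not overlap, all higher in the transgenic hearts, against 7.73% of all tested rows as higher. Their summed linear intensity ran from 8482 to 9369 in wild-type and from 10044 to 10480 in transgenic hearts, without overlap. The list was not uniform. Vsig4, a complement receptor of tissue macrophages, differed by 0.55 ± 0.11, and the complement genes C1qb and C1qc by 0.42 ± 0.077 and 0.47 ± 0.087 (SE, limma adjusted p = 0.0712, 0.0537 and 0.0558). Lyve1, Folr2 and Timd4, which mark long-lived cardiac macrophages, lay at 0.15, 0.19 and -0.03, and Mertk at 0.05. Of 19 measured monocyte markers 13 were higher and 6 lower and 0 passed in limma (7 at an unadjusted p below 0.05), with a median of 0.07: Ccr2, the receptor by which monocytes enter tissue, was at 0.24, Plac8 at 0.07, Itgam at -0.06, Lyz2 at 0.41 ± 0.099 and Thbs1 at -0.58 ± 0.13 (SE, limma adjusted p = 0.112 and 0.0957 for the last 2). Of 17 genes of classical activation, 9 were higher and 8 lower and 0 passed in limma (4 at an unadjusted p below 0.05). Their median was 0.02, with Tnf at -0.46, Il1b at -0.22, Nos2 at -0.16, Irf5 at 0.24 and Cxcl10 at 0.28. No overlap between genotypes was seen in 7 monocyte markers, 5 of them higher, and in 2 genes of classical activation, 2 of them higher.

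**Figure D4:**
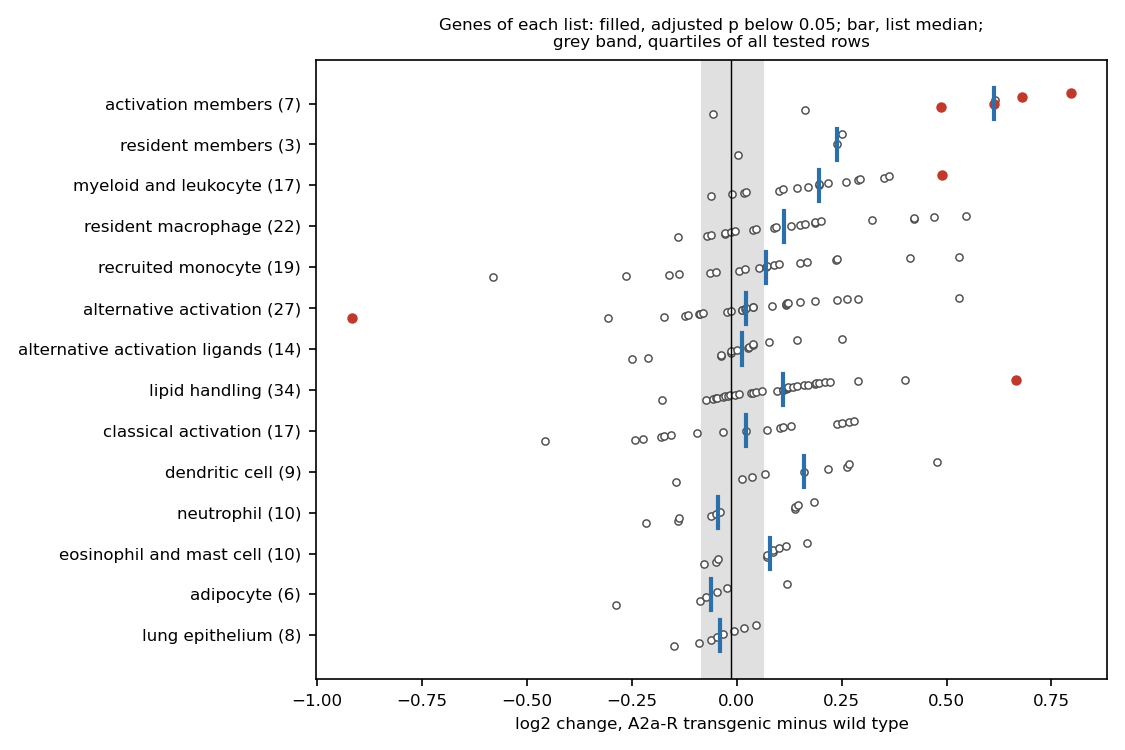
Log2 change (horizontal axis, transgenic minus wild type) of every measured gene of 14 lists, with the number measured in brackets; red points passed an adjusted p below 0.05, the blue bar is the list median and the grey band spans the quartiles of all tested rows, -0.08 and 0.06. The activation genes, which were named with the genotype differences of these arrays known, have the highest median, 0.61, among the lists drawn. The lists of adipocyte and lung epithelium markers have medians of -0.06 and -0.04.

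Several of the activation genes are also made by cells other than macrophages, so markers of those cells were read in the same hearts. Retnla is strongly expressed in fat and airway tissue. The 6 measured fat cell markers had a median of -0.06, with 1 higher, and the 8 lung epithelium markers had a median of -0.04, with 2 higher; 0 passed in limma in either list (1 and 0 at an unadjusted p below 0.05). In the fat list Cidec, a lipid droplet protein, was at -0.29, the hormone leptin (Lep) at -0.07 and Fabp4, which vessels also make, at 0.12. In the lung list Sftpd, a surfactant protein, was at -0.15, Cldn18 at -0.05 and Scgb3a2 at -0.09. The summed intensity of the lung list ranged over 552 to 598 with the wild-type genotype and over 526 to 604 with the transgene. Chil1 is also made by neutrophils, and Lgals3 by many cells. For 10 neutrophil markers the median was -0.045, with 4 higher and 6 lower, and for 10 eosinophil and mast cell markers it was 0.08, with 7 higher. The neutrophil genes Camp, Cxcr2 and Csf3r were at 0.14, 0.14 and -0.14, and Siglecf and Ccr3 of eosinophils and Ms4a2 of mast cells at 0.17, 0.10 and 0.12. In both lists 0 passed in limma (0 at an unadjusted p below 0.05). Their rows were dim, with mean levels of 4.57 to 6.13 for neutrophils and 3.84 to 6.47 for eosinophils and mast cells. Levels in the lung list ran from 3.94 to 7.17. What dimness does to these values was not tested, so medians near 0 do not show that the cells were unchanged. Of 9 dendritic cell markers 8 were higher, with a median of 0.16 and 0 that passed in limma (3 at an unadjusted p below 0.05). H2-Ab1, an MHC class II chain that macrophages share, was at 0.48 ± 0.10 (SE, limma adjusted p = 0.0893), and Itgae and Cd209a were at 0.22 and 0.26. Zbtb46, the 1 marker that was lower, was at -0.14. The summed dendritic cell list ran from 915 to 1019 in wild-type and from 1072 to 1199 in transgenic hearts. H2-Ab1 had the highest mean level in this sum, 8.48, and the sum without H2-Ab1 was not taken. The part of dendritic cells in the result was not tested.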

How the data were processed

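RNA (100 ng) from 6 whole hearts was hybridised to Affymetrix Mouse Gene 1.0 ST arrays, with a single mouse behind each. The authors deposited log2 values made with RMA and Partek, per the submitters' processing notes; their versions and settings were not found in the labels. RMA gives arrays similar distributions, so a global shift is not visible. Of 28853 rows, 21789 carried exactly 1 gene symbol in the platform annotation and were tested; 1621 carried several and 5443 none. Transgenic minus wild type was fitted with limma 3.58.1 in R 4.3.3 (lmFit, eBayes, 4.1 prior degrees of freedom), with Benjamini-Hochberg adjustment over all tested rows and a threshold of 0.05. The code was tested on simulated data. Errors are SD over 3 hearts or the moderated SE, and precision is limited by having 6 arrays.

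The members and lists were chosen with earlier results of these data known, so no p was adjusted over a list alone. Named genes were the members, in each list those that passed and the 3 of smallest p, and for members changed by more than 0.5 the 3 closest in pattern; others were named as examples after their values were seen. Alternatives were a replicate block, other normalizations, filters, variance priors, array weights, rows, reference genes and threshold (0.10), and each heart left out. Equal replicate numbers in the titles are not said to mark a shared litter or day.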

Additional observations from a re-analysis of the deposited data

How the results depend on the processing

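Lgals3 passed under each of the 15 alternatives run for it (log2 change 0.585 to 0.653, limma adjusted p 0.000443 to 0.0303), Retnla under 12 of 15, Gpnmb under 10 of 14, Chil1 under 8 of 15 and Cd68, which did not pass as reported, under 5 of 15 at a threshold of 0.05; the sign of these 5 never changed. The count of genes that passed among the 10 was 1 to 3 with 1 heart left out. Over all rows 209 passed; the count was 97 with the replicate number as a block, 493 (184 higher, 309 lower) without the dimmest 40% of rows, where Gpnmb and Arg1 were not tested, 579 (240 higher, 339 lower) with a trended and robust prior, 476 at an adjusted p below 0.10, and 84 to 147 with 1 heart left out. Same-numbered hearts deviated together at r = 0.16, -0.01 and -0.10, and 2 of 6 hearts correlated best with their own number. With 3 hearts per genotype this cannot decide whether the numbers pair the hearts. With the replicate block 3 of the 10 genes passed. The count relative to Adgre1, 2 of 9, was the least stable: 0 with the replicate block, 4 with a further quantile normalization (3 higher, and Arg1 lower), 8 with array weights (6 higher, and Arg1 and Cd163 lower), 1 with all rows of the table, 5 (4 higher, and Arg1 lower) at an adjusted p below 0.10, 0 to 2 with 1 heart left out, and 5 with Cd163 in place of Adgre1. Of 21788 rows, 83 passed as higher and 2539 as lower in the fit relative to Adgre1 as reported. These were 43 and 229 with the replicate block, 81 and 4228 with the quantile normalization, and 1089 and 17993 with array weights. They were 309 and 1684 with all rows, 119 and 7684 at 0.10, and 41 to 91 and 352 to 8845 with 1 heart left out. With array weights most rows thus passed, mostly as lower. In alternatives added after seeing the data it was 0 with the prior held at 4.1 degrees of freedom (Adgre1, Mrc1 or Cd163 as reference) and 0 with no variance moderation. Signs turned only in differences near 0: Cd163 was -0.0147 with array weights and -0.0467 to 0.055 with 1 heart left out, Arg1 -0.1617 to 0.0533 with 1 heart left out, and relative to Adgre1 Mrc1 was 0.0036 with a further quantile normalization, 0.11 with array weights (limma adjusted p = 0.0126) and -0.11 to 0.11 with 1 heart left out, and Trem2 -0.1567 to 0.0433 with 1 heart left out. In the fit relative to Adgre1 with array weights the SE was 0.0448 for each of the 9 genes. Its p-values, that of Mrc1 among them, are therefore too firm as well. The rows of Arg1, Gpnmb and Mmp12 were among the dimmest 40%, and what dimness does to their values was not tested.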

Other observations

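Markers of the other cells of the heart were read in the same way, against a median of -0.01 and 14.8% at an unadjusted p below 0.05 over all tested rows. Of 9 fibroblast markers 2 were higher and 7 lower, with a median of -0.03, and the collagen-producing cells' marker Pdgfrl was at -0.31 ± 0.14 (SE, limma adjusted p = 0.369), with the matrix proteoglycans Lum and Dpt at -0.11 and 0.17. Wild-type replicate 1 stood 0.24 above the 6-heart mean of that list, while the remaining hearts lay between -0.12 and -0.02. Of 7 blood vessel markers 6 were lower, with a median of -0.07, and Kdr, the main VEGF receptor, was at -0.14 ± 0.057 (SE, limma adjusted p = 0.299), with Egfl7 and Emcn at -0.17 and -0.07. Of 5 lymphatic markers 3 were higher and 2 lower, with Prox1, the lymphatic master factor, and Flt4 both at -0.14, and the median was 0.02. Among 7 T and B cell markers 3 were higher and 4 lower, with Cd79a of B cells at -0.35 ± 0.090 and Cd3g of T cells at 0.28 ± 0.11 (SE, limma adjusted p = 0.137 and 0.277), and Ms4a1 of B cells at 0.19. Of 5 mesothelial markers 4 were higher, with a median of 0.13, and Lrrn4, Upk3b and Krt19 were at 0.25, 0.18 and 0.13. Among 9 cardiac muscle markers the median was -0.01 and Ryr2, the calcium release channel, was at 0.25 ± 0.067 (SE, limma adjusted p = 0.149), with the transcription factor Nkx2-5 at 0.07. In these 6 lists 0 genes passed in limma over all rows; at an unadjusted p below 0.05 there were 0 fibroblast, 1 blood vessel, 1 lymphatic, 3 T and B cell, 1 mesothelial and 1 cardiac muscle markers.

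The mannose receptor relatives did not follow 1 direction: Mrc2 of fibroblasts differed by -0.13 and Ly75 of dendritic cells by 0.12, and neither passed in limma. Neither overlapped between genotypes, which also held for 20.3% of all tested rows. Of the relatives of Adgre1, Adgre4 was at -0.19 and Adgre5 at -0.06.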
